A study of Fundulus heteroclitus with 20 samples.

Results

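Respiratory chain and ATP synthase genes were followed in the injured midbrain/diencephalon of the mummichog. They are the 67 of 13679 genes in the deposited table whose description names NADH dehydrogenase or NADH:ubiquinone oxidoreductase (complex I), succinate dehydrogenase (complex II), cytochrome b-c1 or ubiquinol-cytochrome c reductase (complex III), cytochrome c oxidase (complex IV) or ATP synthase (complex V). Of these, 50 are structural subunits, with 22 in complex I, 2 in complex II, 8 in complex III, 11 in complex IV and 7 in complex V. The other 17 are assembly or accessory factors, with 4 for complex I, 2 for complex II, 8 for complex IV and 3 for complex V. The table held 0 entries described as subunits encoded by mitochondrial DNA, so all values below are for nuclear genes.

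Complexes I and II pass electrons from NADH and succinate to ubiquinone, complex III passes them on to cytochrome c, and complex IV reduces oxygen with them. Complexes I, III and IV pump protons across the inner mitochondrial membrane, and ATP synthase uses the returning protons to make ATP. Neurons depend heavily on this pathway to maintain ion gradients and synaptic transmission, and most of its subunits are encoded in the nucleus and imported.

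The mummichog is a killifish whose brain can regenerate. In 10 adult fish from a commercial supplier, 1 hemisphere of the midbrain/diencephalon was lesioned with a syringe needle under anesthesia and the contralateral hemisphere was left intact, and both were taken at 1 h post-lesion. RNA-seq of each hemisphere gave 10 lesioned and 10 intact libraries, so that each fish was its own control and every control had also been through the anesthesia and had an injured partner hemisphere. The labels place every lesioned hemisphere on the right and every intact one on the left, whereas the study's methods state that sides were balanced; under the labels, side and lesion cannot be told apart. The labels also name a different library kit than the methods do, and no genotype, sex or exact age was given in the sources used here.

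Between 9213580 and 11070103 counts per library fell on the listed genes (median 10110917.5). This is far below the average of uniquely mapped reads per sample that the study reports, and the reason was not examined. Neuronal markers, such as those of the synaptic vesicle machinery, summed to 15300 to 19200 CPM (counts scaled to the library total after TMM normalization) in lesioned and 14100 to 20700 CPM in intact hemispheres, and 0 of the 10 listed were at 0 in every library, which fits the labelled tissue. The lesioned library of fish 5 stood apart in skeletal muscle genes, with a summed level of 205 CPM over the 8 listed, against at most 29.8 CPM in any other library; 1 of the 8 was at 0 throughout and only 2 passed the filter on low counts. The intact library of fish 2 had 192 CPM over 11 retina and pineal genes, against at most 81.8 CPM elsewhere. The counts of the 67 genes called are given with and without these fish, and counts within a complex or list, levels, medians and copy shares over all 10 fish. In bulk tissue, fewer cells of a type and less RNA per cell cannot be told apart.

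All 67 genes passed the filter on low counts. Their mean levels ran from 1.24 to 1940 CPM, and 65 were at 10 CPM or more. The median member had 110 CPM, against 33.2 CPM for all 10513 genes tested. These levels are not corrected for transcript length, so they are compared between hemispheres and fish and not between genes. Summed over the 50 subunits, lesioned hemispheres had 9990 to 12000 CPM (median 10600) and intact hemispheres 9520 to 11800 CPM (median 11000), and the sum was lower in the lesioned hemisphere of 6 fish. The ranges therefore overlapped almost completely.

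No respiratory chain gene passed the stricter of the study's cutoffs. The test was the quasi-likelihood F-test of edgeR with fish as a block, and q is its p-value adjusted by the Benjamini-Hochberg method over all genes tested. With q ≤ 0.1, 0 of 67 genes were higher and 0 were lower in the lesioned hemisphere, where 1.28% of all genes tested were called higher and 0.0951% lower (1.38% in either direction). DESeq2 also called 0 at this cutoff, and 16 of the 67 had an unadjusted p-value under 0.05 in edgeR, against 11.7% of all genes. The fitted changes were small. They ran from -0.25 to 0.07 on the log2 scale, and the 95% confidence interval of the change lay within 0.2 of 0 in 62 genes and within 0.1 of 0 in 12. In 0 of the 67 genes did the CPM ranges of lesioned and intact hemispheres fail to overlap.

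Most fitted changes nevertheless had the same sign. Of the 67 genes, 60 (89.6%) had a fitted log2 fold change below 0, against 54.9% of all genes tested, and the median was -0.045 against -0.009. At the permissive cutoff of the study, q ≤ 0.4, 12 genes (17.9%) were lower in the lesioned hemisphere, where 3.97% of all genes were, and 1 was higher, where 6.12% of all genes were (10.1% in either direction). By its definition this cutoff allows a large share of false calls. The study applied it to a DESeq2 fit of its own. Of all genes tested here, edgeR called 1060 at 0.4 and DESeq2 with fish as a block called 370, so edgeR made more calls. The DESeq2 fit had its own filter on low mean counts, tuned to a cutoff of 0.1, so these counts are not fully alike. The 12 genes had log2 fold changes between -0.25 and -0.058. The count of 12 depended on the model and on single fish. In DESeq2 with fish as a block it was 2 (0.58% of all genes were lower), and without the block it was 0 (0.019%), so the share of all genes fell as well. The count was 0 without fish 8 (0.618% of all genes), 0 without fish 9 (0.789%), 2 without fish 6 (1.63%) and 3 without fish 1 (2.38%). Leaving out fish 10 gave 4 (2.32%), fish 2 gave 7 (2.44%) and fish 4 gave 7 (2.65%). The count was 20 without fish 5 (5.28% of all genes), 18 without fish 3 (8.9%) and 10 without fish 7 (3.34%). The share of all genes called lower thus changed with the fish left out as well. Without fish 5, 1 gene, complex III subunit 8 (LOC105921008), also passed the stricter cutoff (log2 fold change -0.13, q = 0.0792). With all fish kept, 0.0951% of all genes were lower at that cutoff, and the share without fish 5 is not given here.

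**Figure D1:**
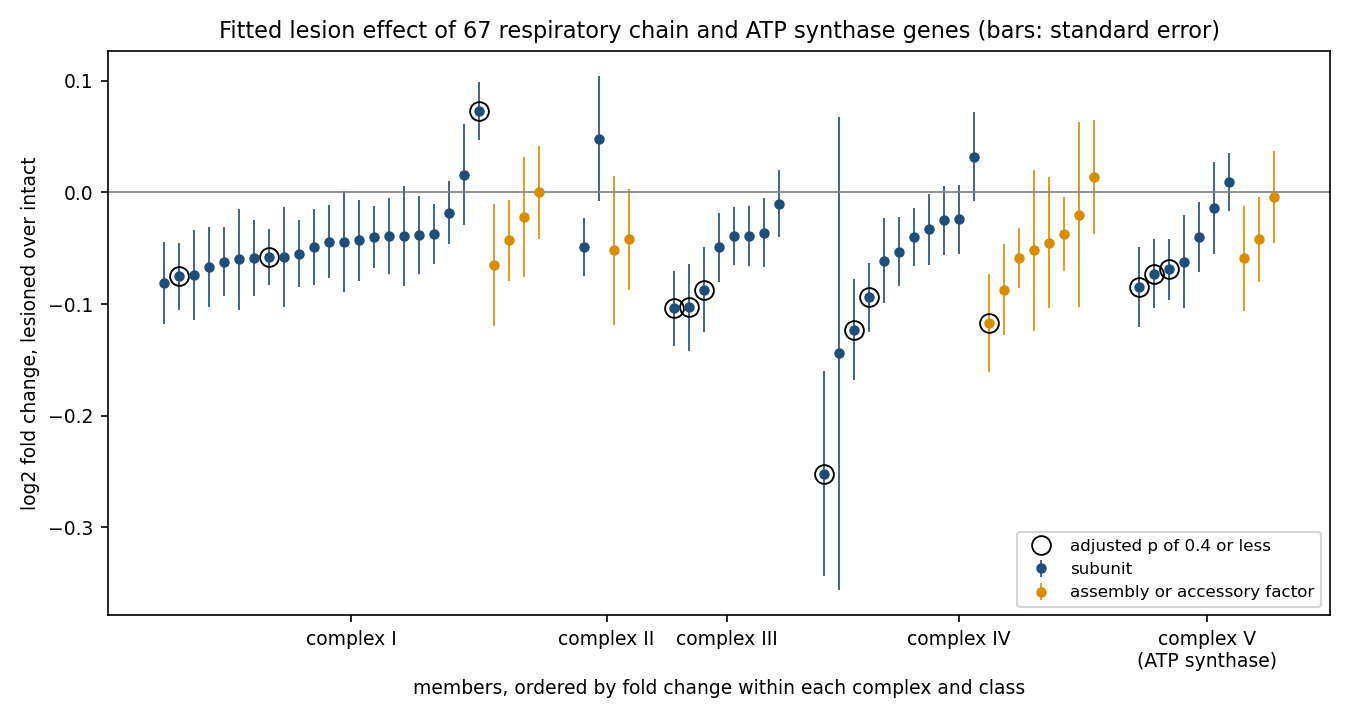
Fitted log2 fold change, lesioned over intact, of each of the 67 genes with its standard error, grouped by complex and by class (blue, subunit; orange, assembly or accessory factor); rings mark q ≤ 0.4. Of the 67 points, 60 lie below 0, 12 ringed genes are below 0 and 1 ringed gene, ndufab1, is above it.

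In complex I, 20 of 22 subunits had a fitted change below 0 (54.9% of all genes), with a median of -0.046. At 0.4, 2 (9.09%) were lower, where 3.97% of all genes were, and 1 was higher, where 6.12% were. The subunits lower in the lesioned hemisphere were ndufs7 and LOC105917891, a copy of NDUFS8; both proteins carry iron-sulfur clusters on the way to ubiquinone. LOC105917891 had 103 to 126 CPM (median 113) in lesioned and 106 to 135 CPM (median 119) in intact hemispheres, and its log2 fold change was -0.075 (SE 0.030, q = 0.339), lower in 9 of 10 fish. In the reference annotation this gene overlaps a neighbour, and the strand setting of the counting was not given in the sources used here. For ndufs7 the levels were 102 to 128 CPM (median 112) in lesioned and 102 to 142 CPM (median 115) in intact hemispheres (log2 fold change -0.058, q = 0.390).

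The gene that was higher was ndufab1, which encodes the mitochondrial acyl carrier protein, a part of complex I that also serves mitochondrial fatty acid and lipoic acid synthesis. It had 98.1 to 126 CPM (median 115) in lesioned hemispheres and 94.3 to 124 CPM (median 106) in intact hemispheres. The ranges overlapped, but within fish it was higher in the lesioned hemisphere in 9 of 10, by a log2 fold change of 0.073 (SE 0.026, q = 0.287; exact sign-flip permutation test over fish, unadjusted p = 0.00586, where 0.00195 is the smallest p that 10 fish allow). Without fish 2, 4, 6, 8 or 9 it did not pass 0.4. ndufv3, an accessory subunit of the NADH-oxidizing module, had 39.3 to 52.2 CPM in lesioned and 38.6 to 48.3 CPM in intact hemispheres, a log2 fold change of 0.016 (q = 0.932).

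The complex I subunits with the most counts showed differences smaller than their spread. LOC105935155, described as flavoprotein 1, which binds FMN and accepts electrons from NADH, had 325 to 395 CPM (median 355) in lesioned and 329 to 405 CPM (median 353) in intact hemispheres. Its 95% interval for the log2 change ran from -0.078 to 0.042. ndufa9, an accessory subunit near the ubiquinone site, had 206 to 262 CPM (median 228) in lesioned and 210 to 274 CPM (median 239) in intact hemispheres, with an interval from -0.11 to 0.034. The 4 assembly factors ndufaf1, ndufaf3, ndufaf5 and ndufaf7 had log2 fold changes from -0.07 to 0.00, and 0 had an unadjusted p-value under 0.05.

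Complex II was represented by its iron-sulfur subunit alone, in 2 copies. Their names here are those of the deposited table. The reference annotation, of another assembly, gives the symbol sdhb to LOC105927147 and calls the entry named sdhb here LOC105925882. LOC105927147 had 159 to 208 CPM (median 170) in lesioned and 163 to 198 CPM (median 181) in intact hemispheres, lower in 8 of 10 fish (log2 fold change -0.049, q = 0.514). The other copy, sdhb, had 22.4 to 59.0 CPM (median 44.8) in lesioned and 25.6 to 63.1 CPM (median 42.4) in intact hemispheres (log2 fold change 0.048, q = 0.803). The fitted changes of the copies had opposite signs, but each interval contained 0. For the assembly factors sdhaf1 and sdhaf2 the log2 fold changes were -0.052 and -0.042.

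In complex III all 8 subunits had a fitted change below 0 (54.9% of all genes), with a median of -0.044, and 3 were lower at 0.4 (3.97% of all genes). The lowest q of all 67 genes belonged to LOC105919243, described as subunit 6, the acidic hinge protein that helps cytochrome c dock on cytochrome c1. It had 33.0 to 42.5 CPM (median 37.8) in lesioned and 34.4 to 49.8 CPM (median 40.1) in intact hemispheres. The level was lower in the lesioned hemisphere of 9 fish, with log2 ratios from -0.28 to 0.02, a log2 fold change of -0.10 (SE 0.034, q = 0.247) and an unadjusted exact sign-flip permutation p of 0.00586. LOC105921008, subunit 8, had 148 to 195 CPM (median 165) in lesioned and 151 to 198 CPM (median 182) in intact hemispheres (log2 fold change -0.10, q = 0.318). Fish 5 went the other way in this gene, with 169 CPM in the lesioned and 151 CPM in the intact hemisphere. LOC105930822, subunit 9, had 147 to 189 CPM (median 155) in lesioned and 143 to 189 CPM (median 170) in intact hemispheres (log2 fold change -0.087, q = 0.398).

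The other 5 complex III subunits did not pass 0.4. LOC105926019, core subunit 1, had 347 to 461 CPM (median 387) in lesioned and 364 to 472 CPM (median 403) in intact hemispheres (log2 fold change -0.036, q = 0.702). Core subunit 2 had a pair of copies. LOC105935602 had 324 to 415 CPM (median 377) in lesioned and 348 to 434 CPM (median 379) in intact hemispheres, and LOC105930091 had 94.3 to 112 CPM (median 105) in lesioned and 91.2 to 120 CPM (median 106) in intact hemispheres. Their log2 fold changes were -0.039 (q = 0.612) and -0.010 (q = 0.938). The Rieske iron-sulfur protein (LOC105924362) had a log2 fold change of -0.039 and LOC105934547, described as like subunit 10, one of -0.049 (q = 0.584).

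Complex IV had the widest range of changes, but its most negative values came from the subunits with the fewest counts, LOC105915328 (-0.25) and LOC105932799 (-0.14). Of the 11 complex IV subunits 10 had a fitted change below 0 (54.9% of all genes), with a median of -0.053. At 0.4, 3 were lower (3.97% of all genes). LOC105937864 is described as like subunit 4 isoform 2, which in mammals is the isoform favoured in lung and under low oxygen. It had 253 to 381 CPM (median 295) in lesioned and 248 to 371 CPM (median 332) in intact hemispheres, and was lower in 8 of 10 fish (log2 fold change -0.094, SE 0.031, q = 0.256). It passed 0.4 in 14 of the 17 other fits, the most of any gene here.

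Both copies of subunit 7A2, a small subunit at the edge of the complex, were among the genes lower at 0.4. LOC105934387 had 154 to 215 CPM (median 174) in lesioned and 151 to 222 CPM (median 198) in intact hemispheres (log2 fold change -0.12, q = 0.303). LOC105915328 had only 2.43 to 7.75 CPM (median 6.23) in lesioned and 2.77 to 12.6 CPM (median 6.83) in intact hemispheres, and the most negative fitted change of all 67 (-0.25, SE 0.092, q = 0.310). Fish 4 had the widest gap, with 7.7 CPM in the lesioned and 12.6 CPM in the intact hemisphere. Fish 1 was low in both, at 2.4 CPM in the lesioned and 2.8 CPM in the intact hemisphere.

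Other subunits of complex IV did not pass 0.4. LOC105916112, described as like NDUFA4, a protein first assigned to complex I and now placed in complex IV, had 520 to 784 CPM (median 652) in lesioned and 541 to 789 CPM (median 714) in intact hemispheres (log2 fold change -0.061, q = 0.584). The copies of subunit 6B1, which faces the intermembrane space, had 552 to 678 CPM in lesioned and 521 to 684 CPM in intact hemispheres for LOC105934955, and 74.3 to 100 CPM in lesioned and 81.7 to 100 CPM in intact hemispheres for LOC105926733. Their log2 fold changes were -0.033 and -0.025. LOC105931138, subunit 5B, had 260 to 351 CPM (median 299) in lesioned and 239 to 348 CPM (median 301) in intact hemispheres, and was the only complex IV subunit with a fitted change above 0 (0.032, q = 0.817). LOC105932799, subunit 6A, was the member with the fewest counts, at 0.378 to 1.84 CPM in lesioned and 0.499 to 1.78 CPM in intact hemispheres. Its interval, from -0.60 to 0.31, was too wide to read.

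Among the 8 complex IV assembly factors, 1 was lower at 0.4 (3.97% of all genes). LOC105933357, a homologue of COX20, which in human and yeast cells handles the newly made mitochondrially encoded subunit 2, had 20.9 to 26.0 CPM (median 23.1) in lesioned and 20.8 to 28.7 CPM (median 25.4) in intact hemispheres (log2 fold change -0.12, SE 0.044, q = 0.318). The copper chaperone LOC105938342, which hands on copper for the catalytic centres, had a log2 fold change of -0.087 (q = 0.427). LOC105916108, a translational activator of the mitochondrially encoded subunit 1, had 17.1 to 22.3 CPM in lesioned and 15.4 to 21.7 CPM in intact hemispheres, with a log2 fold change of 0.014 (q = 0.953).

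In ATP synthase 6 of 7 subunits had a fitted change below 0 (54.9% of all genes), with a median of -0.062, and 3 were lower at 0.4 (3.97% of all genes). atp5o encodes the stalk protein that ties the catalytic head to the stator and in mammals confers oligomycin sensitivity. It had 292 to 369 CPM (median 321) in lesioned and 292 to 378 CPM (median 351) in intact hemispheres, lower in 9 of 10 fish (log2 fold change -0.073, q = 0.381). atp5d, a subunit of the rotating central stalk, had 190 to 238 CPM (median 201) in lesioned and 184 to 247 CPM (median 214) in intact hemispheres (log2 fold change -0.069, q = 0.332). atp5l, the membrane subunit g, had 64.7 to 80.2 CPM (median 70.9) in lesioned and 66.9 to 81.8 CPM (median 77.1) in intact hemispheres (log2 fold change -0.085, q = 0.381), and it too overlaps another gene in the annotation.

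The other 4 ATP synthase subunits did not pass 0.4. atp5b, the catalytic beta subunit, had 1710 to 2170 CPM (median 1940) in lesioned and 1710 to 2090 CPM (median 1960) in intact hemispheres, and was lower in the lesioned hemisphere of 5 fish. Its log2 fold change was 0.009 (SE 0.026, q = 0.936), with a 95% interval from -0.048 to 0.065, and its sign turned under upper quartile scaling (-0.004). atp5j had a log2 fold change of -0.014 (q = 0.936), atp5j2 one of -0.062 and LOC105916347, which is described as membrane subunit C3, one of -0.040. The 3 accessory genes atp5s, atpaf1 and atpaf2 had log2 fold changes of -0.059, -0.042 and -0.004.

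The small shift did not come evenly from the 10 fish. In fish 8, 64 of the 67 genes had a lower CPM in the lesioned hemisphere, and their median log2 ratio was -0.148. The counts were 61 genes (median -0.128) in fish 9, 59 genes (median -0.137) in fish 1, 54 genes (median -0.092) in fish 6 and 52 genes (median -0.058) in fish 10. In fish 3, 42 genes were lower (median -0.03) and in fish 2, 32 were (median 0.013). In the other 3 fish most genes were higher in the lesioned hemisphere, with 53 in fish 5 (median 0.067), 41 in fish 4 (median 0.025) and 40 in fish 7 (median 0.038). The median was thus negative in 6 of 10 fish, with an SD over fish of 0.079. This SD exceeds the size of the median fitted change (-0.045), but it describes the spread of single fish and not the error of an average over 10. Over all genes tested, the medians of single fish lay between -0.016 and 0.006.

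**Figure D2:**
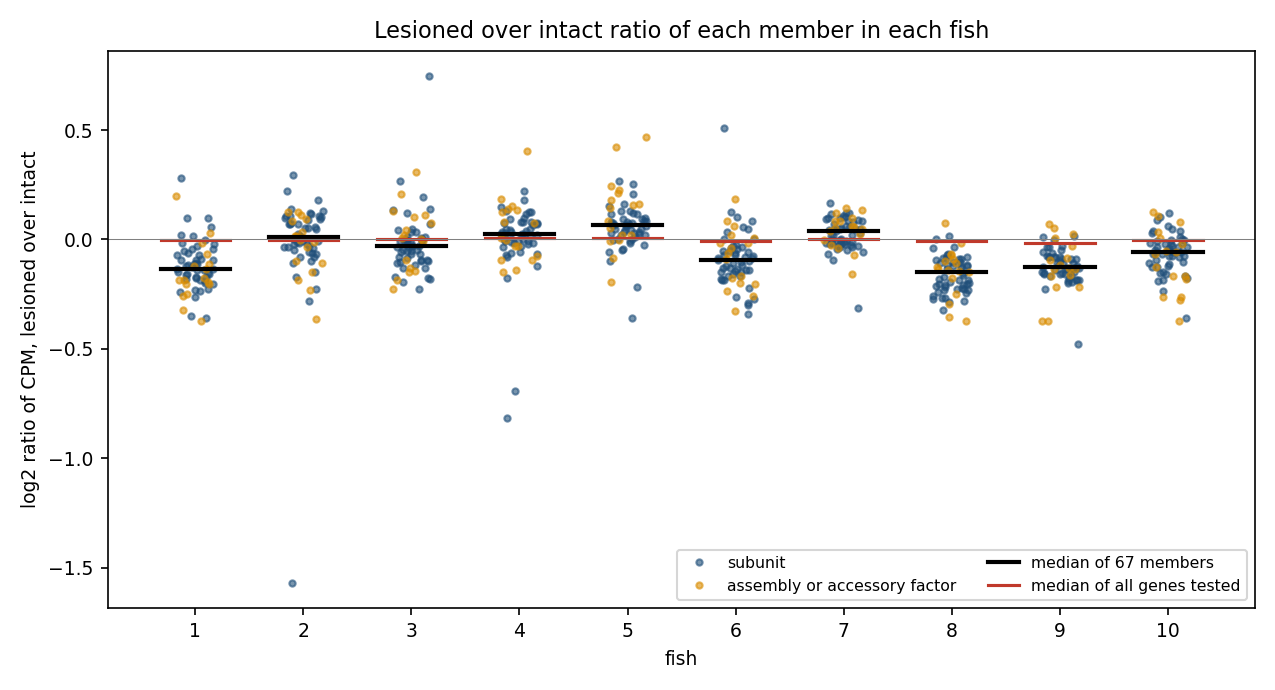
Log2 ratio of CPM, lesioned over intact, of each of the 67 genes in each fish (blue, subunit; orange, assembly or accessory factor), with the median of the 67 (black bar) and of all genes tested (red bar). The black bar lies furthest below 0 in fish 8 (-0.148), fish 1 (-0.137) and fish 9 (-0.128) and furthest above it in fish 5 (0.067).

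Other gene groups also varied in their ratio between the fish, and their part in the result was not tested. For comparison, 54.9% of all genes tested had a fitted change below 0. At 0.4, 3.97% of all genes were lower and 6.12% higher, and at 0.1, 0.0951% were lower and 1.28% higher. Mitochondrial ribosomal proteins, which translate the mitochondrially encoded subunits, had medians of -0.137 in fish 8, -0.135 in fish 9, -0.123 in fish 1 and -0.119 in fish 6, and of 0.103 in fish 5. In fish 2 (-0.038) and fish 3 (0.013) the sign was opposite to that of the 67 genes. Of the 30 tested, 26 had a fitted change below 0 (median -0.034), 2 were lower at 0.4 and 0 were higher. All 9 neuronal markers tested also had a fitted change below 0, with a median of -0.087; 1 had an unadjusted p-value under 0.05 and 0 passed 0.4. Their medians were -0.172 in fish 8, -0.159 in fish 6, -0.115 in fish 9, -0.088 in fish 10 and -0.052 in fish 1, and 0.108 in fish 4. In other fish the sign was opposite to that of the 67 genes. The neuronal median was -0.089 in fish 7 (67 genes, 0.038), 0.089 in fish 3 (-0.03) and -0.038 in fish 2 (0.013). In fish 5 the neuronal median was -0.01, while the 2 skeletal muscle genes tested had a median log2 ratio of 3.18. All 7 microglia and macrophage markers had a fitted change below 0 as well (median -0.106); 3 were lower at 0.4, and 1 of these passed 0.1 (q = 0.00272). Other cell type markers went both ways. Both erythrocyte genes tested had a fitted change above 0 (median 0.376, with a positive median in 9 fish), and 1 was higher at 0.4. Of 5 radial glia and astroglia markers 3 had a fitted change above 0 (median 0.017). Of 9 oligodendrocyte markers 3 did (median -0.025), with 1 higher at 0.1 and 1 lower at 0.4, and of 5 endothelial markers 1 did (median -0.017), with 1 higher at 0.1 and 1 lower at 0.4. Of 5 retina and pineal genes 3 had a fitted change below 0 (median -0.871), and 2 were lower at 0.4. Both skeletal muscle genes tested had a fitted change above 0 (median 0.479), and 0 passed 0.4. Single libraries stood apart in both of these lists, as given above. Of the 11 glycolytic enzymes tested, 10 had a fitted change below 0 (median -0.036) and 0 passed 0.4 or had an unadjusted p-value under 0.05.

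The other genes of the pathway are set against the same background, 3.97% of all genes lower and 6.12% higher at 0.4. Of 6 tested genes for mobile carriers and ubiquinone synthesis, all had a fitted change below 0 (median -0.049) and 0 passed 0.4, with 2 at an unadjusted p-value under 0.05. The smallest p-value was that of etfa, which brings electrons from fatty acid oxidation to ubiquinone, at 311 to 371 CPM in lesioned and 310 to 373 CPM in intact hemispheres (log2 fold change -0.057, q = 0.412). Another 22 tested genes were found by names of tricarboxylic acid cycle enzymes. They include kinases and phosphatases of pyruvate dehydrogenase and cytosolic enzymes such as idh1, so the list is wider than the cycle. The cycle gene idh3a was at 0 CPM in every library and was not tested. Of the 22, 1 (4.55%) was lower at 0.4 and 0 were higher, which is close to that background, and the median was -0.006. That gene was LOC105916992, a copy of the succinyltransferase of the 2-oxoglutarate dehydrogenase complex, with 186 to 218 CPM (median 190) in lesioned and 197 to 220 CPM (median 203) in intact hemispheres (log2 fold change -0.071, q = 0.312).

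Of 3 tested genes for nucleotide and metabolite exchange, 1 was lower at 0.4. It was LOC105919894, ADP/ATP translocase 3, which exports ATP from the matrix, with 3280 to 4030 CPM (median 3450) in lesioned and 3360 to 4160 CPM (median 3690) in intact hemispheres (log2 fold change -0.051, q = 0.373). Among 12 regulators of mitochondrial biogenesis the median was 0.017, and 1 was higher at 0.4, again near the background. esrra, a nuclear receptor that in mammals activates many respiratory chain genes, had 39.3 to 54.0 CPM (median 48.8) in lesioned and 40.8 to 50.9 CPM (median 44.9) in intact hemispheres, higher in 9 of 10 fish (log2 fold change 0.11, SE 0.037, q = 0.273).

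Many of the genes differed between the fish. In the same fit, 52 of 67 genes (77.6%) differed between fish with q ≤ 0.1, where 63.4% of all genes tested did. The count was 49 without fish 5 and 53 without fish 2, and the share of all genes in those fits is not given here. The median SD of a member over fish was 0.12 on the log2 scale, against 0.168 for all genes, and 54 of the 67 lay below that median; the members also had higher levels than most genes, so their fish differences were measured with more counts. The median ratio of the highest to the lowest fish was 1.3-fold, 57 genes stayed under 1.5-fold and 4 reached 2-fold or more. By class, 42 of 50 subunits and 10 of 17 assembly or accessory factors differed between fish. All 8 complex III subunits did, as did 10 of 11 in complex IV, 6 of 7 in ATP synthase and 16 of 22 in complex I, and 0 of the 3 accessory genes of ATP synthase.

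Subunits of different complexes deviated together in single fish. The same counts were not made for all genes or for other gene groups, so the pattern is not shown to be particular to these subunits. Relative to each subunit's own mean over the 10 fish, 48 of 50 subunits were above it in the lesioned and 45 in the intact hemisphere of fish 7, and 43 in the lesioned and 40 in the intact hemisphere of fish 3. In fish 5, 41 were below their mean in the lesioned and 44 in the intact hemisphere, and in fish 4, 39 were in the lesioned and 45 in the intact hemisphere. In fish 8 the hemispheres lay on opposite sides, with 33 subunits below their mean in the lesioned hemisphere and 43 above it in the intact one. In fish 1, 41 subunits were below their mean in the lesioned hemisphere and 28 were in the intact one. The median deviations lay between -0.096 and 0.153 in lesioned and between -0.213 and 0.112 in intact hemispheres on the log2 scale.

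**Figure D3:**
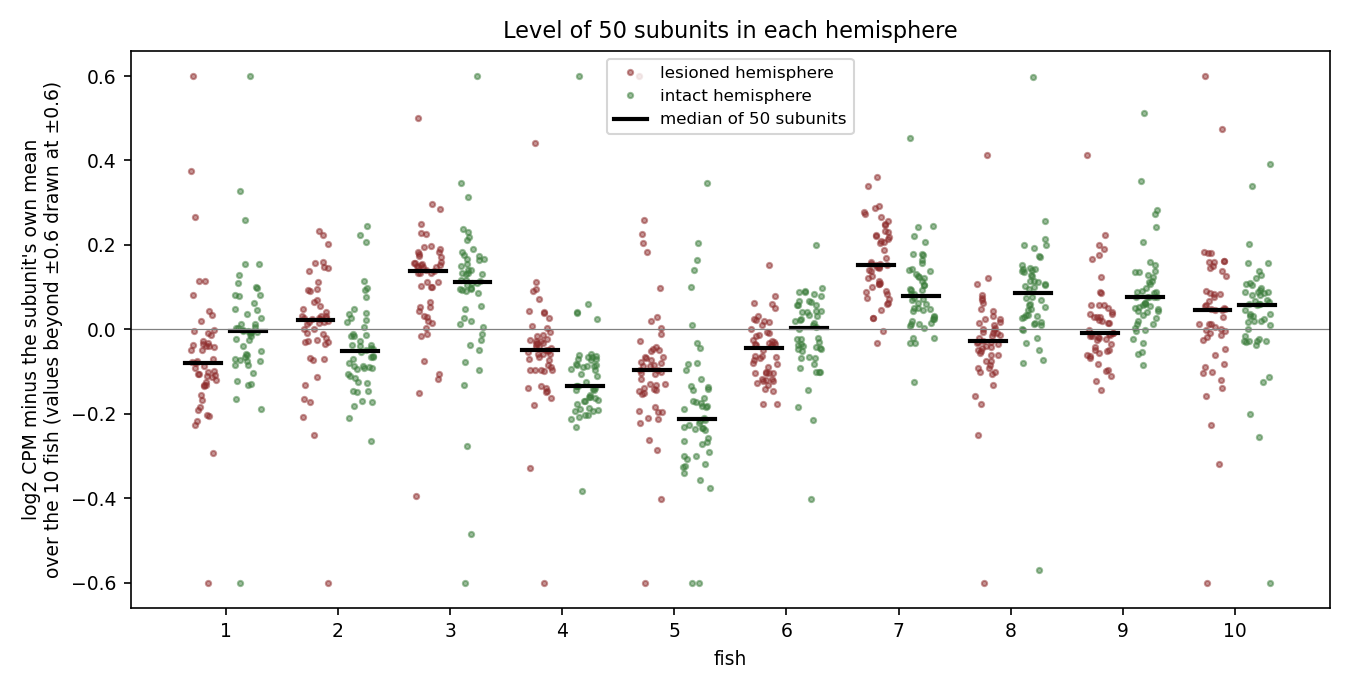
Log2 CPM of each of the 50 subunits minus the same subunit's mean over the 10 fish of that group, in the lesioned (red) and intact (green) hemisphere of each fish, with the median (black bar). Fish 3 and fish 7 lie above 0 in both hemispheres and fish 4 and fish 5 below it; the lowest median, -0.213, is that of the intact hemisphere of fish 5.

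A few genes stood out from this shared pattern. The strongest difference between fish was in LOC105932619, the other copy of NDUFS8, which ranked 118 of all 10513 genes tested (q = 1.59e-07, highest over lowest fish 4.38-fold). It had 12.5 to 63.2 CPM (median 40.8) in lesioned and 16.1 to 62.6 CPM (median 39.4) in intact hemispheres. Fish 5 was lowest, with 12.5 CPM in the lesioned and 16.1 CPM in the intact hemisphere, and fish 1 was highest, with 63.2 CPM in the lesioned and 62.6 CPM in the intact hemisphere. With 1 fish left out, q stayed between 2.42e-07 and 4.1e-06. The hemispheres of a fish were thus far closer to each other than the fish were, and the lesion effect was -0.039 (q = 0.800).

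sdhb ranked 674 (q = 3.17e-05, 2.53-fold). Fish 10 had 22.4 CPM in the lesioned and 25.6 CPM in the intact hemisphere and fish 8 had 25.9 CPM in the lesioned and 27.1 CPM in the intact one. Fish 3 had 59.0 CPM in the lesioned and 63.1 CPM in the intact hemisphere. Fish 6 was an exception to the likeness of hemispheres, with 43.4 CPM in the lesioned and 30.4 CPM in the intact one.

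Of the other genes with the smallest p-values for fish differences, LOC105932510 is a homologue of COA3, which in human cells stabilizes newly made cytochrome c oxidase subunit 1. It ranked 440 (q = 8.92e-06), with 43.6 CPM in both hemispheres of fish 4 and 72.4 CPM in the lesioned and 75.9 CPM in the intact hemisphere of fish 1. ndufaf5, a complex I assembly factor, ranked 497 (q = 1.21e-05) and had 42.2 to 74.8 CPM in lesioned and 46.3 to 82.6 CPM in intact hemispheres. ndufs1, the largest iron-sulfur subunit of complex I, ranked 673 (q = 3.16e-05) and had 129 to 190 CPM in lesioned and 128 to 200 CPM in intact hemispheres. In fish 5, which was low in most subunits, ndufs1 had 190 CPM in the lesioned and 192 CPM in the intact hemisphere, near the top of both ranges. LOC105937864 ranked 1348 (q = 0.000314).

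For 6 subunits or assembly factors the table held a pair of copies, and the share of the pair's counts on the copy with fewer counts was compared. Reads of near-identical copies may be assigned to the wrong one or dropped, so these shares are uncertain as measures of each copy, and a difference in sequence between fish would also change them. For NDUFS8, LOC105932619 held 10.8% to 36.6% of the counts of the pair in lesioned hemispheres (median 26.4%) and 13.2% to 34.2% in intact hemispheres (median 25.2%). Fish 5 had 10.8% in the lesioned hemisphere (95% Wilson interval 9.23% to 12.7%) and 13.2% in the intact one (11.3% to 15.3%), and fish 1 had 36.6% in the lesioned (34.4% to 38.9%) and 34.2% in the intact hemisphere (32.1% to 36.4%). The intervals cover counting error only. Hemispheres of 1 fish differed by at most 2.42 percentage points in this pair.

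For the iron-sulfur subunit of complex II, sdhb held 12.2% to 24.7% in lesioned and 12.0% to 25.8% in intact hemispheres. Fish 8 had 12.4% in the lesioned and 12.0% in the intact hemisphere, and fish 3 had 24.7% in the lesioned and 25.8% in the intact one. The widest gap within a fish was 6.02 points in fish 6, with 21.4% (19.6% to 23.3%) in the lesioned and 15.4% (13.9% to 17.0%) in the intact hemisphere. For COX7A2, LOC105915328 held 1.55% to 4.30% in lesioned and 1.39% to 7.02% in intact hemispheres, with fish 1 lowest in both and fish 4 highest in both. COX6B1 and core subunit 2 of complex III varied less, between 10.9% and 14.1% in lesioned hemispheres and up to 14.6% in intact hemispheres for COX6B1, and between 20.1% and 23.9% in lesioned and 20.3% and 23.7% in intact hemispheres for core subunit 2. For COA3 the share on LOC105940381 was 34.7% to 46.6% in lesioned and 36.6% to 42.3% in intact hemispheres. In a two-sided exact sign-flip permutation test over fish of the share in lesioned minus intact hemispheres, the p-values adjusted over the 6 pairs were 0.462 or more.

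**Figure D4:**
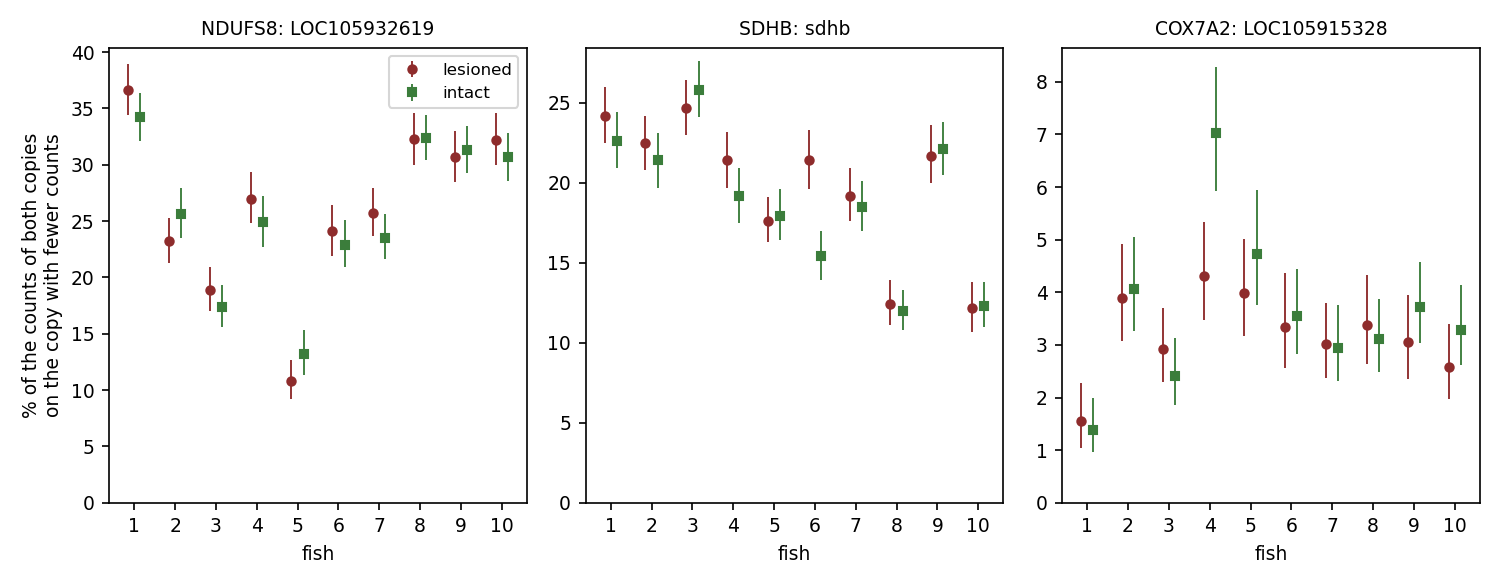
Percentage of the counts of both copies that fell on the copy with fewer counts, in the lesioned (red) and intact (green) hemisphere of each fish, for NDUFS8, SDHB and COX7A2, with 95% Wilson intervals. In NDUFS8 the share runs from 10.8% in fish 5 to 36.6% in fish 1 in lesioned hemispheres, and hemispheres of a fish lie within 2.42 points of each other.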

How the data were processed

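Adapters were trimmed with cutadapt 1.11, reads were checked with FastQC 0.11.5, aligned with STAR and counted per gene with HTSeq by the authors, per the labels and the study's methods; the strand setting was not given in the sources used here. The authors deposited whole-number counts per gene and library without normalization. Columns of their own DESeq2 comparison (mean, fold change, standard error, statistic, p-values) were not used. Of 16264 entries, 2585 transfer RNAs (at most 0.00458% of counts in a library) were left out.

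In R 4.3.3, counts were fitted with edgeR 4.0.16 (TMM, filterByExpr with a minimum count of 10 and a minimum total of 15, quasi-likelihood, fish as a block), which left 10513 genes; the fish test was an F-test of the fish coefficients. DESeq2 1.42.0 was an alternative. CPM were computed from these deposited counts, and log2 ratios used a prior count of 2. A gene at 1 CPM has about 10 counts. Sign-flip tests used all 1024 patterns. Both hemispheres come from 1 animal, and their departures from the mean of their group had correlations across genes of 0.385 to 0.731, against -0.207 to 0.201 between fish. Separate animals are the replicates. On simulated counts (10640 genes tested), the lesion test called 97% of genes changed by 1 and 83% changed by 0.5 on the log2 scale. Of its calls, 10.4% were false. Every fitted change of the 67 genes was smaller than these (-0.25 to 0.07). Changes of that size were not simulated, so these rates do not say how often the test would call them.

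The members, gene lists and naming rule were chosen with earlier results of these data known. Named were the 2 subunits of highest level per complex, up to 6 genes per direction by lesion p-value, the 6 with the smallest p-value between fish, duplicated copies, and 1 gene per pathway list; the others named (ndufs7, LOC105917891, LOC105930822, LOC105924362, LOC105934547, LOC105916347, atp5j, atp5j2, LOC105938342, LOC105932799, LOC105940381, atp5d, atp5l and the complex I, II and V accessory genes given with fold changes alone) were added after their values were seen. Symbols were matched to a RefSeq annotation of another assembly for 66 of 67 members; 11 of these were unplaced, and 5 of the rest overlap another gene. It gave no lengths or sequences. In all, 18 fits were made.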

Additional observations from a re-analysis of the deposited data

Results flagged for a closer look

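In 95 groups of 10 values, 3 held a value whose gap to its nearest neighbour exceeded Dixon's 95% critical value, as a share of the group's range; chance gives about 1 in 20, or 4.75. LOC105927147, a copy of the complex II iron-sulfur subunit, had a log2 CPM of 7.70 in the lesioned hemisphere of fish 5, against 7.32 to 7.51 in the other lesioned hemispheres (gap 0.499 of the range). The intact hemisphere of fish 5 was high in this gene as well. The log2 ratio of lesioned over intact was 0.0708 in fish 5, which had the highest mean level over both hemispheres. The lesioned library of fish 5 had the highest summed level of skeletal muscle genes, 205 CPM, where intact libraries had 14.0 to 24.3 CPM. Whether this bears on the value was not tested.

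LOC105915328, the copy of COX7A2 with fewer counts, had a log2 CPM of 1.39 in the lesioned hemisphere of fish 1, against 2.44 to 2.99 in the others (gap 0.657 of the range). LOC105932619, a copy of NDUFS8, had 3.67 in the lesioned hemisphere of fish 5, against 4.88 to 5.99 in the others (gap 0.522 of the range). Both genes were also lowest in the intact hemisphere of the same fish.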

How the results depend on the processing

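The median change of the 67 genes stayed below 0 in each of the 17 other fits, as did that of all genes tested. With 1 fish left out it was -0.056 to -0.033 for the 67 and -0.01 to -0.007 for all genes. With upper quartile scaling the medians were -0.059 and -0.022, against -0.045 and -0.009 in the fit used above. With 1 fish left out, 57 to 64 of the 67 had a fitted change below 0. In the fit used above 54.9% of all genes did, and their share in the other fits is not given here. The 12 genes lower at 0.4 became 19 with upper quartile scaling (7.43% of all genes), 5 with no filter on low counts (1.59%), 2 in DESeq2 with fish as a block (0.58%) and 0 with no replicate block (0.019%); without the pairing the 1 gene higher at 0.4 also became 0, as it did in DESeq2. Leaving out 1 fish gave 0 to 20 genes lower at 0.4, where 0.618% to 8.9% of all genes were, and 0 to 1 higher. At 0.1 it gave 0 to 1 lower, and the share of all genes at 0.1 in those fits is not given here. The cause was not tested. Differences between fish were called in 48 to 55 of the 67 genes with 1 fish left out. With all fish kept, 63.4% of all genes were called, and the share in the fits without 1 fish is not given here. The sign turned in atp5b with upper quartile scaling (-0.004) and, with 1 fish left out, in atp5b (-0.002 to 0.021), sdhb (-0.001 to 0.071), ndufv3 (-0.012 to 0.044), LOC105916108 (-0.010 to 0.042), LOC105930091 (-0.022 to 0.012) and LOC105935155 (-0.027 to 0.002). Of the 510 other values of single genes' lesion changes, 409 kept their sign and their side of 0.4, 80 lost it, 11 gained it and 10 turned, and 402 of 416 calls between fish were kept. Changes under about 0.1 on the log2 scale are within the confidence interval of most of these genes.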
